A study of Mus musculus with 9 samples.

Results

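The Igf2bp family (Igf2bp1, Igf2bp2 and Igf2bp3), Lin28b and the Hmga genes (Hmga1 and Hmga2) were followed in a mouse co-culture of glioblastoma (GBM) cells and astrocytes. These 6 genes were taken by name from the 49315 genes of the count table, with Ensembl identifiers matched to symbols in GENCODE M21 for GRCm38, and no measured value enters that rule, although the list was drawn up with earlier results of these data known. SB28 is a GFP-expressing mouse GBM line, and all tumor libraries come from this 1 line, so they show spread between cultures and not between tumors. The astrocytes were primary neonatal cells of mito::mKate2 mice on a C57BL6 background, whose mitochondria carry the fluorophore mKate2. After 2 days of 1:1 co-culture in DMEM F12 with FBS, N2 supplement, EGF and FGF, and no other treatment, cells were sorted into astrocytes, SB28 cells without astrocyte mitochondria (mKate2-) and SB28 cells that had acquired them (mKate2+), with 3 libraries each. The sorted tumor cells of both kinds had therefore met astrocytes and the same growth factors, and SB28 cells grown alone were not analysed here.

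The members belong to a well-known developmental circuit. LIN28 proteins bind the precursors of the let-7 microRNAs and block their maturation, and mature let-7 represses mRNAs that carry matches to its seed, among them HMGA2, the IGF2BP mRNAs and LIN28B itself. IGF2BP proteins bind and stabilize mRNAs, many of them marked by m6A, and HMGA proteins bend AT-rich DNA in chromatin. Most of them are abundant in embryonic tissue, decline as tissues mature and are found again in many cancers.

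All 6 transcripts carry the let-7 seed match. It is not independent of the choice of names, since HMGA2, the IGF2BP mRNAs and LIN28B were already known as let-7 targets. Of the 11 mature mouse let-7 and miR-98 names in the RefSeq table, 10 have the same seed (bases 2 to 8), and let-7j differs. The mature sequences below show that shared seed in capitals, 5′ to 3′, for let-7a, for let-7c, whose first locus returns below, and for miR-98.
let-7a-5p: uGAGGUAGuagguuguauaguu
let-7c-5p: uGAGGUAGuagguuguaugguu
miR-98-5p: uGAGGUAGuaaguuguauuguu

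The letters CTACCTC, which pair with this seed, were searched on the mRNA strand in the longest annotated 3′ UTR of each gene. One site for each gene is shown with its surroundings, that nearest the stop codon, with the match in capitals.
Igf2bp1: gctgtgcgaagtaaaCTACCTCaaggtgtg
Igf2bp2: acacacaaataaaagCTACCTCaggtgttt
Igf2bp3: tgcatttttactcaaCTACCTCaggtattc
Lin28b: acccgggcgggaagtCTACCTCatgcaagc
Hmga1: tcctctgttcacaaaCTACCTCtggacggt
Hmga2: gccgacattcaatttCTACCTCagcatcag

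In GRCm38 these windows lie at chr11:95961771-95961800 on the minus strand for Igf2bp1, chr16:22059466-22059495 on the minus strand for Igf2bp2 and chr6:49086780-49086809 on the minus strand for Igf2bp3. They lie at chr10:45381015-45381044 on the minus strand for Lin28b, chr17:27563277-27563306 on the plus strand for Hmga1 and chr10:120364217-120364246 on the minus strand for Hmga2. All 6 genes thus held at least 1 match, against 9.03% of 20874 protein-coding genes with an annotated 3′ UTR. Part of that gap goes with the length of these 3′ UTRs. Known let-7 targets were also among the names chosen, so the shares given here describe these genes and are not a test. Igf2bp1 held 4 matches in 6337 bases, where 34.2% of UTRs of similar length (80 to 125% of its own) held any and 0.17% held as many. Lin28b held 4 in 4445 bases, where 24.3% of UTRs of similar length held any and 0.22% as many. Hmga2 held 4 in 3014 bases, where 16.0% held any and 0.08% as many. The remaining genes held 1 match each, in 1784 bases for Igf2bp2, 2119 for Igf2bp3 and 1183 for Hmga1, and 12.1%, 13.3% and 8.21% of UTRs of similar length held at least 1. A match is a run of letters and not evidence of repression, and mature let-7 was not measured in these libraries.

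**Figure D1:**
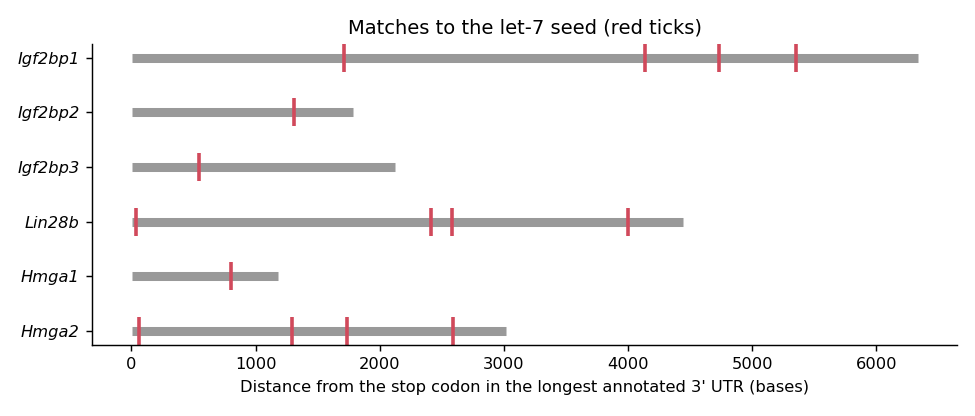
Positions of the letters CTACCTC (red ticks) along the longest annotated 3′ UTR (grey bar) of each gene, in bases from the stop codon. Igf2bp1, Lin28b and Hmga2 hold 4 matches each, with the first Hmga2 match 58 bases and the first Lin28b match 36 bases from the stop codon, and the other genes hold 1 each.

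The 6 genes lie on 5 chromosomes. Igf2bp1 (ENSMUSG00000013415) spans chr11:95957163-96005940, Igf2bp2 (ENSMUSG00000033581) chr16:22059009-22163299 and Igf2bp3 (ENSMUSG00000029814) chr6:49085223-49214957, all on the minus strand. Lin28b (ENSMUSG00000063804) spans chr10:45376620-45486395 and Hmga2 (ENSMUSG00000056758) chr10:120361275-120476469, both on the minus strand, and Hmga1 (ENSMUSG00000046711) chr17:27556497-27563674 on the plus strand. Exonic length, the union of annotated exons, is 2125 bases for Hmga1 and runs from 6772 bases for Hmga2 to 9682 bases for Igf2bp1. For that reason the 6 genes are ranked by level only per kilobase. Ratios of counts between genes and CPM over marker lists below are not corrected for length.

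Total counts were 24454561, 32707569 and 35135662 in astrocyte replicates 1, 2 and 3, from 27187348 to 35891589 in the mKate2- libraries and from 34175016 to 39287841 in the mKate2+ libraries. Levels below are CPM, each gene's count scaled to the total of its library. The labelled cell types were compared with their markers first. Slc1a3, an astrocyte glutamate transporter, was at 173, 177 and 236 CPM in astrocyte replicates 1, 2 and 3 and at 0.56 to 2.38 CPM in the SB28 libraries, and Aldh1l1 was at 140, 111 and 172 CPM against 4.92 to 8.48 CPM. Gfap was low in astrocyte replicates 1, 2 and 3, at 8.83, 3.42 and 19.4 CPM, and Gjb6 was at 0 in all 9 libraries. Of 12 astrocyte markers tested, 9 were called lower in each SB28 population and 0 higher by the rule given with the comparisons below. Those not called were Gja1, Clu and Sox9. Their log2 fold changes in mKate2- and mKate2+ cells were 0.43 and 0.55 for Gja1, 0.24 and 0.26 for Clu and -0.91 and -0.95 for Sox9.

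Markers of other cell types were looked up as well. Over 10 oligodendrocyte lineage markers the sum was 983, 542 and 612 CPM in astrocytes and 39.1 to 48.6 CPM in the SB28 libraries, and 4 of 6 tested were called lower in SB28 cells. Olig1 was the most abundant of them, at 541, 241 and 304 CPM in astrocytes, while Sox10, which defines that lineage, was at 0 to 0.0611 CPM in them. Neuron markers summed to 54.3, 103 and 93.7 CPM in astrocytes, mostly from Map2 and Stmn2, and to 38.8 to 48.96 CPM in SB28 cells, with the defining Rbfox3 at 0 in all libraries. Of 5 tested, Stmn2 and Nefl were called lower in both SB28 populations, and in mKate2+ cells Map2 was called lower (not without astrocyte replicate 2) and Tubb3 higher as well. Without astrocyte replicate 3, Nefl was among 2 of these no longer tested. Endothelial, pericyte and fibroblast markers summed to 1413, 1493 and 1059 CPM in astrocytes and to 539 to 811 CPM in SB28 cells, mostly from Col1a2, with Dcn at 0.859, 0.0306 and 2.45 CPM in astrocytes, and 0 of 4 tested were called, but Col1a1 and Col1a2 were called lower in mKate2+ cells without astrocyte replicate 3. Of the 10 microglia and macrophage markers, all but Tmem119 and P2ry12 stayed below 1 CPM in all libraries. P2ry12 was at 1.06, 2.54 and 0.484 CPM in astrocytes and at or below 0.0555 CPM in SB28 cells, where it was called lower, and Tmem119 was at 24.8 to 39.1 CPM in astrocytes and 47.3 to 61.1 CPM in SB28 cells, not called. The part of such cells in the astrocyte levels of the 6 genes was not tested.

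Astrocyte replicate 3 stood apart from replicates 1 and 2. Its CPM of Aqp4, the astrocyte water channel, was 59.7 against 5.64 and 6.82, and that of the glutamate transporter Slc1a2 was 56.8 against 4.46 and 11.3. Where that library carries a result below, the value without it is given.

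The Igf2bp family was higher in SB28 cells than in astrocytes, with every tumor library above every astrocyte library. Igf2bp1 was at 9.73, 11.9 and 7.51 CPM in astrocyte replicates 1, 2 and 3, at 62.6, 61.7 and 69.5 CPM in the mKate2- replicates and at 66.5, 55.1 and 62.7 CPM in the mKate2+ replicates. The lowest tumor library was thus 4.64 times the highest astrocyte library. Igf2bp3 followed the same course, at 10.3, 11.8 and 11.3 CPM in astrocytes, 61.0, 63.4 and 79.1 CPM in mKate2- cells and 69.7, 59.3 and 72.9 CPM in mKate2+ cells. Igf2bp2, the family member best known from adult tissues, was at 52.5, 76.0 and 55.2 CPM in astrocytes, 249, 259 and 254 CPM in mKate2- cells and 246, 200 and 249.7 CPM in mKate2+ cells. In these bulk samples, fewer cells that express a gene and less RNA per cell cannot be told apart.

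Per kilobase, Igf2bp2 was the main family member in all 3 populations. It made up 77.6% ± 1.76 (SD, n = 3) of the summed Igf2bp level per kilobase in astrocytes, 69.6% ± 2.26 in mKate2- cells and 68.2% ± 0.523 in mKate2+ cells. The share of Igf2bp1 was 9.43% ± 1.34 in astrocytes, 13.5% ± 0.533 in mKate2- cells and 13.8% ± 0.568 in mKate2+ cells. That of Igf2bp3 ran from 11.2 to 14.4% in astrocytes and was 16.8% ± 1.82 in mKate2- and 18.0% ± 0.352 in mKate2+ cells. The Igf2bp2 share ran from 75.8 to 79.3% in the astrocyte libraries and from 67.0 to 71.2% in all SB28 libraries, without overlap, and no test was made of it.

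Lin28b was the least abundant of the 6 genes per kilobase. It was at 0.654, 0.825 and 1.02 CPM in astrocytes, which is 16, 27 and 36 reads, at 6.11, 3.96 and 6.94 CPM in mKate2- cells and at 5.96, 2.72 and 5.38 CPM in mKate2+ cells. Every SB28 library exceeded every astrocyte library, and the mKate2- and mKate2+ libraries overlapped. Its level per kilobase stood at percentile 18.3 of 13431 expressed genes in mKate2- cells and at 0.357 in astrocytes. Lin28a, the paralog with the same activity on let-7 precursors, had 0 reads in all 9 libraries.

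Hmga1 and Hmga2 were the abundant members, and in astrocytes they were also the variable ones. Hmga2 was at 648, 728 and 329 CPM in astrocyte replicates 1, 2 and 3, at 1744, 1626 and 1625 CPM in mKate2- cells and at 1777, 1362 and 1638 CPM in mKate2+ cells. All tumor libraries lay above all astrocyte libraries, with replicate 3 the lowest of the astrocytes. Hmga1 was at 1973, 1679 and 670.0 CPM in astrocytes, at 2245, 2432 and 2321 CPM in mKate2- cells and at 2408, 2766 and 2403 CPM in mKate2+ cells. Here too the groups did not overlap, although astrocyte replicate 1 came close to the lowest SB28 library. The level of Hmga1 per kilobase stood at percentile 99.7 in astrocytes and 99.9 in mKate2- cells, and that of Hmga2 at 96.5 and 99.0.

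The low values of both Hmga genes in astrocyte replicate 3 were among the largest drops in that library. Relative to the mean of replicates 1 and 2, Hmga1 was at 0.367 and Hmga2 at 0.477, which are percentiles 0.781 and 1.82 of that ratio over 13450 genes, whose median was 1.02. The Igf2bp genes and Lin28b moved less there, with ratios of 0.696 for Igf2bp1, 0.859 for Igf2bp2, 1.02 for Igf2bp3 and 1.38 for Lin28b. The same library had the highest CPM of Aqp4, Slc1a2 and Aldoc, and whether these go together was not tested. The count of Hmga2 per count of Hmga1 was 0.329, 0.434 and 0.490 in astrocytes, 0.777, 0.669 and 0.700 in mKate2- cells and 0.738, 0.492 and 0.682 in mKate2+ cells, so the astrocyte libraries lay below all SB28 libraries by a small margin and the mKate2- and mKate2+ libraries overlapped.

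**Figure D2:**
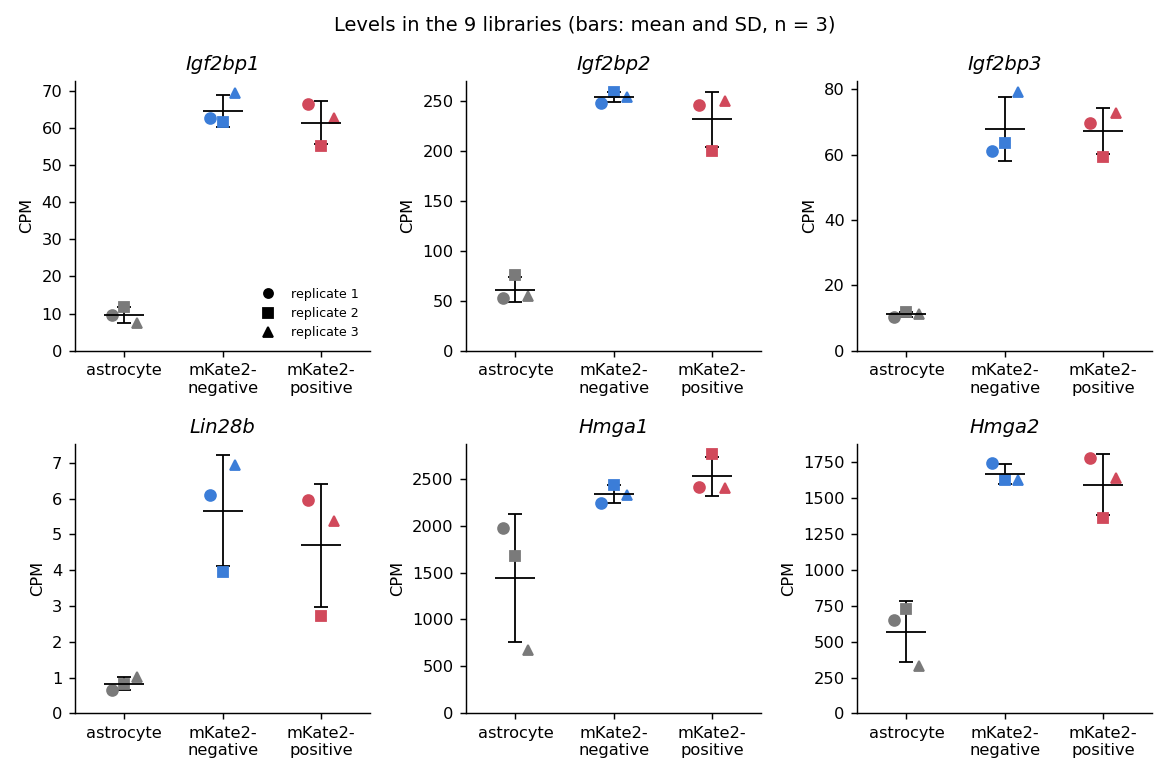
CPM of each gene (y axis, from 0) in the 3 astrocyte (grey), 3 mKate2- (blue) and 3 mKate2+ (red) libraries, with marker shape for the replicate and bars for the mean and SD. All SB28 points lie above all astrocyte points for every gene, and the mKate2- and mKate2+ points overlap for every gene.

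Against astrocytes, 5 of the 6 genes were called higher in mKate2- cells and 0 lower. A call here is an adjusted P value below 0.05 with an absolute log2 fold change above 1 in edgeR's quasi-likelihood test, adjusted by Benjamini-Hochberg over all genes tested. By this rule 11.5% of 13356 genes were called higher and 22.4% lower. Values without overlap are more common, since 33.8% of genes had every mKate2- library above every astrocyte library, as all 6 members did. Igf2bp1 was higher by 2.75 ± 0.185 on the log2 scale (SE, adjusted P = 2.02e-05 by edgeR), Igf2bp3 by 2.62 ± 0.143 (adjusted P = 9.31e-06) and Igf2bp2 by 2.07 ± 0.150 (adjusted P = 2.69e-05). Lin28b was higher by 2.76 ± 0.335 (adjusted P = 0.000269 by edgeR). Counted from the highest log2 fold change of the 13356 genes, Lin28b ranked 35, Igf2bp1 39 and Igf2bp3 62. In the other direction 1460 genes lay below -3. Hmga2 was higher by 1.56 ± 0.279 (adjusted P = 0.00183 by edgeR), and by 1.28 without astrocyte replicate 3.

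Hmga1 was the exception. Its log2 fold change was 0.70 ± 0.357 (adjusted P = 0.120 by edgeR), with a 95% interval from -0.13 to 1.53. Without astrocyte replicate 3 it was 0.36 (adjusted P = 0.0299), and without astrocyte replicate 1 it was 1.01 (adjusted P = 0.0444), which is past both thresholds. The size of the Hmga1 difference thus depended on which astrocyte libraries were in the fit.

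The mKate2+ cells gave the same 5 calls. By this rule 12.2% of 13342 genes were called higher and 22.8% lower, and 29.4% of genes had every mKate2+ library above every astrocyte library. The log2 fold changes were 2.73 ± 0.194 for Igf2bp1 (adjusted P = 3.45e-05), 2.67 ± 0.134 for Igf2bp3 (adjusted P = 9.54e-06) and 1.99 ± 0.169 for Igf2bp2 (adjusted P = 7.06e-05), all by edgeR. They were 2.54 ± 0.386 for Lin28b (adjusted P = 0.000997) and 1.56 ± 0.290 for Hmga2 (adjusted P = 0.00269, and 1.26 without astrocyte replicate 3). Hmga1 was again not called, at 0.88 ± 0.368 (adjusted P = 0.0703 by edgeR), at 0.52 without astrocyte replicate 3 (adjusted P = 0.0306) and at 1.18 without astrocyte replicate 1 (adjusted P = 0.0387), which is past both thresholds. With the replicate number as a block, Hmga1 was at 1.02 in mKate2+ cells (adjusted P = 0.0241 by edgeR), also a call. Both comparisons use the same 3 astrocyte libraries, so their likeness is not independent evidence.

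**Figure D3:**
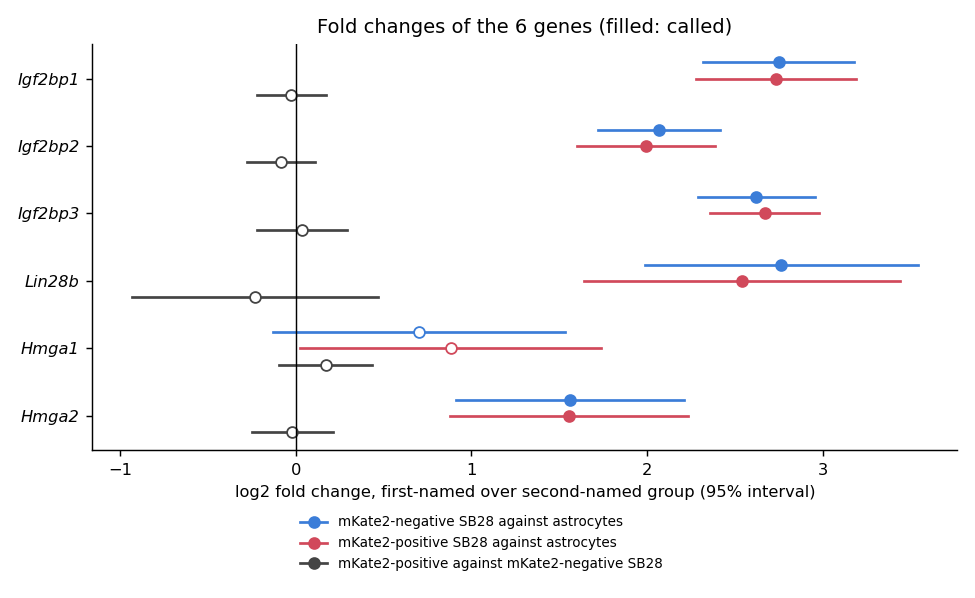
Log2 fold change (x axis) with its 95% interval for each gene in mKate2- cells against astrocytes (blue), mKate2+ cells against astrocytes (red) and mKate2+ against mKate2- cells (dark grey), with filled points for calls. Both tumor populations differ from astrocytes by 1.56 to 2.76 in mKate2- cells and 1.56 to 2.73 in mKate2+ cells for the 5 genes called, and the intervals of the third comparison all span 0.

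How low the astrocyte values can be read was limited by a floor common to all genes. Among the 2502 genes with a mean above 100 CPM in the SB28 libraries, none fell below 8.43%, 16.6% and 9.75% of that mean in astrocyte replicates 1, 2 and 3. The lowest gene was Gpr149, an orphan receptor, in each of them, with 352, 928 and 585 reads. In the other direction the lowest genes reached 0 to 0.354%, among 2331 genes above 100 CPM in astrocytes. The same asymmetry showed in the fits, where 10 genes were above 3 on the log2 scale and 1460 below -3 in mKate2- cells against astrocytes, with a highest value of 3.68 and a lowest of -11.16. Had all Gpr149 reads in the astrocyte libraries come from SB28 cells, those percentages would be the most SB28 RNA that these libraries could hold.

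Igf2bp1, Igf2bp3 and Lin28b lay nearer to this floor than the other members in each astrocyte library. In replicate 3 the margin was small, with Lin28b at 19.8% and Hmga2 at 20.2% of the SB28 mean. Igf2bp1 was at 15.4, 18.8 and 11.9% of its SB28 mean in astrocyte replicates 1, 2 and 3, Igf2bp3 at 15.2, 17.5 and 16.7% and Lin28b at 12.6, 15.9 and 19.8%. SB28 RNA at the limit would supply 54.6, 88.2 and 81.7% of the astrocyte level of Igf2bp1, 55.5, 94.9 and 58.4% of that of Igf2bp3 and 66.7, 104 and 49.3% of that of Lin28b. Beyond the limit, 4.42, 1.40 and 1.37 CPM of Igf2bp1 and 4.57, 0.607 and 4.68 CPM of Igf2bp3 would be left, and 0.218, -0.03 and 0.520 CPM of Lin28b. How much of these levels SB28 RNA supplied, within that limit, was not tested. If SB28 RNA is present, the log2 fold changes above are smaller than those between pure populations.

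Igf2bp2, Hmga1 and Hmga2 were farther from the floor, with a smaller share open to SB28 RNA in each astrocyte library than for the 3 genes above. The limit would supply 38.99, 53.1 and 42.9% of the astrocyte level of Igf2bp2, and 32.03, 35.7 and 31.5 CPM would be left. It would supply 21.2, 37.1 and 48.3% of the level of Hmga2, with 511, 458 and 170 CPM left. It would supply 10.4, 24.04 and 35.3% of the level of Hmga1, with 1768, 1275 and 433 CPM left. This limit was worked out after the values were seen, and with minimums of 20, 50 and 200 CPM in place of 100 CPM the lowest gene was at 7.79 to 17.1% over the 3 libraries.

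**Figure D4:**
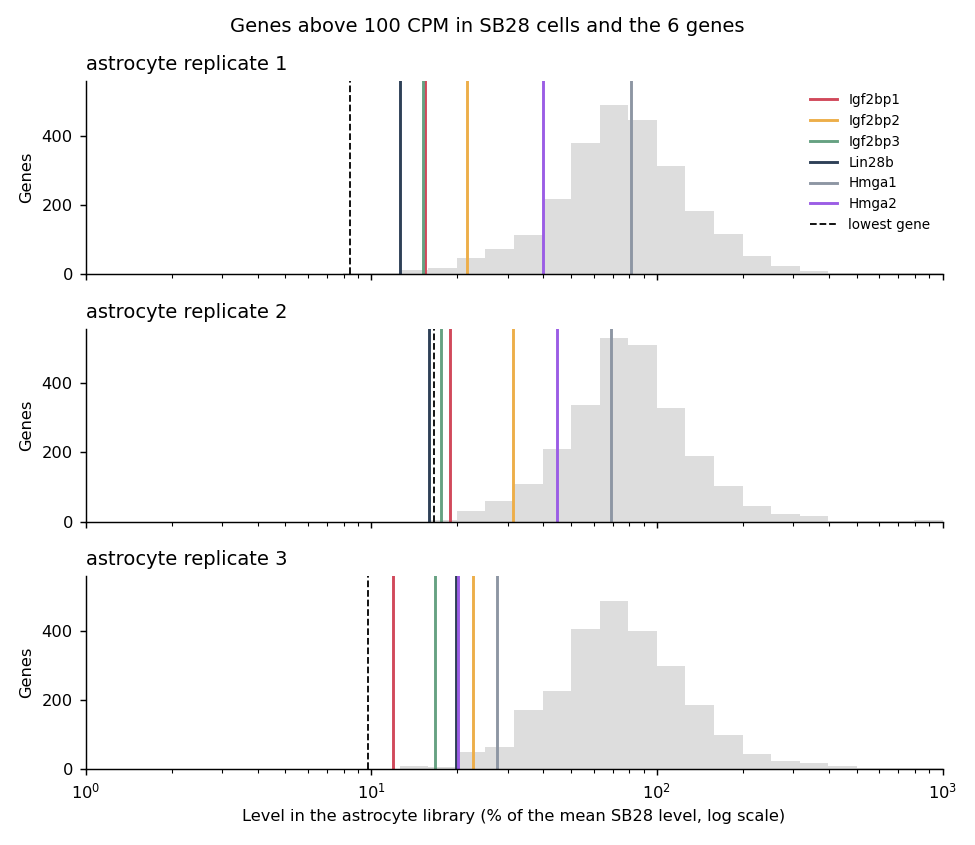
Level in each astrocyte library as a percentage of the mean SB28 level (x axis, log scale), as a histogram over the 2502 genes above 100 CPM in SB28 cells (grey), with the 6 genes as coloured lines and the lowest gene as a dashed line. Igf2bp1, Igf2bp3 and Lin28b stand at 11.9 to 19.8%, nearer the lowest gene in each library than Igf2bp2, Hmga1 and Hmga2. Hmga1 is at 81.2, 69.1 and 27.6%.

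Whether acquired astrocyte mitochondria went with other levels of these genes was asked by comparing mKate2+ with mKate2- cells. Of the 6 genes, 0 were called at the thresholds of the study (fold change above 1.5, unadjusted P value below 0.05 and mean normalized count above 50), by which 0.194% of 11854 genes were called higher and 0.169% lower. Those shares are 23 and 20 genes, and they depended on single libraries, at 310 and 70 without mKate2+ replicate 1, 5 and 16 without replicate 2 and 232 and 36 without replicate 3, and at 9 to 15 and 21 to 28 without single mKate2- replicates. Over the whole table, edgeR's quasi-likelihood test gave 241 genes at an unadjusted P value below 0.05 and 0 at an adjusted one, and DESeq2 gave 317 and 0. For the 6 genes the smallest unadjusted P value by edgeR was 0.177, for Hmga1, and the adjusted ones ran from 0.923 to 0.984. Groups without overlap, which 8.83% of genes had, were seen for 0 of the 6.

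The intervals show which sizes of change these libraries leave possible. Igf2bp1 differed by -0.03 on the log2 scale (95% interval -0.22 to 0.17), Igf2bp2 by -0.08 (-0.28 to 0.11) and Igf2bp3 by 0.04 (-0.22 to 0.29). Hmga2 differed by -0.02 (-0.25 to 0.21) and Hmga1 by 0.17 (-0.10 to 0.44). For these 5 genes, the thresholds' 1.5-fold change, in either direction, lies outside the interval. Lin28b was the least precise, at -0.23 (-0.93 to 0.47), and its interval includes a loss by more than 1.5-fold.

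Replicate 2 of the mKate2+ cells stood at the edge of the SB28 libraries. It was the lowest of the 6 SB28 libraries for 5 of the 6 genes, at 0.852 of the mean of the other 5 libraries for Igf2bp1, 0.796 for Igf2bp2, 0.856 for Igf2bp3, 0.480 for Lin28b and 0.810 for Hmga2, and it was the highest for Hmga1, at 1.17. In that library the median ratio over 13431 genes was 0.899 and the 5th to 95th percentiles ran from 0.407 to 1.66. Lin28b was at percentile 6.31 of these ratios, and the Igf2bp genes and Hmga2 were at 31.8 to 42.2. Without it the log2 fold change of Lin28b between mKate2+ and mKate2- cells was 0.01.

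Lists of related genes were written from textbook knowledge, and their members are counted by the rules above. Against astrocytes these counts stand beside 11.5% of all genes called higher and 22.4% lower in mKate2- cells, and 12.2% and 22.8% in mKate2+ cells. Of 17 tested genes that process or regulate let-7, 1 was called higher in mKate2- cells than in astrocytes and 1 lower, both smaller shares than over all genes, with a median log2 fold change of 0.34 against -0.04 over all genes. The gene called higher was Xpo5, which exports microRNA precursors from the nucleus, at 59.9, 75.5 and 76.9 CPM in astrocytes and 134 to 166 CPM in mKate2- cells (log2 fold change 1.08, adjusted P = 0.000243 by edgeR). Without astrocyte replicate 3, Dgcr8, a microRNA processing gene, was called higher as well, at 1.01. The call of Xpo5 was lost without astrocyte replicate 1 or mKate2- replicate 3, with a lowest value of 0.97. The gene called lower was Ago4, one of the Argonaute proteins that hold mature microRNAs, at 7.93, 5.69 and 9.39 CPM in astrocytes and 0.221 to 0.402 CPM in mKate2- cells (log2 fold change -4.74, adjusted P = 4.14e-05 by edgeR). The mKate2+ cells gave the same 2 calls, at 1.04 for Xpo5 and -5.03 for Ago4, and that of Xpo5 was lost without astrocyte replicate 1 or mKate2+ replicate 3 (lowest 0.93).

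Genes known as let-7 targets did not move one way. Of 22 tested, 5 were called higher and 4 lower in each SB28 population, with a median of 0.39 in mKate2- and 0.38 in mKate2+ cells. In mKate2- cells those called higher included the transcription factor genes Myc, by 1.62, and Plagl2, by 1.57, and the kinase gene Cdk6 by 1.27 and the phosphatase gene Cdc25a by 1.05, both regulators of the cell cycle. Called lower were Mycn at -6.87, the death receptor gene Fas at -5.45 and the cyclin D genes Ccnd2 at -1.57 and Ccnd1 at -1.45. Adjusted P values by edgeR for these 8 named genes in mKate2- cells ran from 4.4e-05 for Mycn to 0.0173 for Ccnd2. Ccnd2 rested on astrocyte replicate 3, where it was at 2910 CPM against 712 and 1120 CPM, and without that library it was at -0.80 and not called, nor was it called without mKate2- replicate 1 or 3. In mKate2+ cells Ccnd2 was at -1.52, and it was not called without astrocyte replicate 3, at -0.76, or without any 1 of the mKate2+ replicates. Without astrocyte replicate 3 the counts were 6 higher and 3 lower in each population, since the receptor gene Tgfbr1, at 0.85 in mKate2- and 0.82 in mKate2+ cells with all libraries, was then called at 1.17 and 1.13. Cdc25a was not called without mKate2- replicate 3, at 0.97.

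Targets of the IGF2BP proteins were as mixed. Of 13 tested, 3 were called higher and 4 lower in each SB28 population, with a median of 0.15 in both. Without astrocyte replicate 3, 4 were called higher and 4 lower in mKate2- cells. The gene added was Mki67, which is also in the list of cycling genes below. Besides Myc, whose mRNA these proteins stabilize, the transcription factor gene Lef1 was higher in mKate2- cells by 1.43 (adjusted P = 0.00484 by edgeR) and the drug efflux pump gene Abcb1b by 1.07 (adjusted P = 0.00295), the last not called without astrocyte replicate 1, at 0.85. The kinase gene Mapk4 was lower at -6.77, the noncoding RNA H19 at -4.33, the matrix protein gene Tgfbi at -2.19 and the Hedgehog effector gene Gli1 at -1.39, with adjusted P values by edgeR from 1.06e-05 to 0.0106. Igf2, the growth factor mRNA that gave the family its name, was below 1 CPM in 8 libraries and at 4.67 CPM in astrocyte replicate 3.

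Of 11 protein partners in Igf2bp ribonucleoproteins, 1 was called higher and 0 lower in each population, no larger a share than the 11.5 and 12.2% of all genes called higher. It was Hnrnpab, an RNA-binding protein gene, at 1.01 in mKate2- cells (adjusted P = 0.000371 by edgeR), not called without astrocyte replicate 2 or 3 or mKate2- replicate 3 (lowest 0.93), and at 1.21 in mKate2+ cells (adjusted P = 0.000226). Of 15 m6A writers, readers and erasers, 0 were called in mKate2- cells, where the median was 0.37, and 1 higher in mKate2+ cells. That gene was Rbm15, which recruits the m6A writer complex, at 1.00 in mKate2+ cells and 0.92 in mKate2- cells. The call was lost without astrocyte replicate 1 or 3 or mKate2+ replicate 1 (lowest 0.87), so that 0 of 15 were called without astrocyte replicate 3.

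Among other high-mobility-group genes, 2 of 8 were called higher in mKate2- cells and 3 in mKate2+ cells, with 0 lower. Hmgb2, a DNA-bending protein gene of dividing cells, was at 80.6, 90.2 and 76.9 CPM in astrocytes and 315 to 419 CPM in mKate2- cells, higher by 2.19 on the log2 scale (adjusted P = 1.54e-05 by edgeR). The nucleosome-binding gene Hmgn2 was higher by 1.05 (not called without astrocyte replicate 1 or 2 or mKate2- replicate 3, lowest 0.94), and Hmgb1 was at 0.99 in mKate2- and 1.05 in mKate2+ cells. Genes of cycling cells were mostly higher as well, with 13 of 14 called higher in each SB28 population and medians of 1.70 in mKate2- and 1.76 in mKate2+ cells. Their summed level was 992, 987 and 1230 CPM in astrocytes, 3225, 3059 and 3435 CPM in mKate2- cells and 3311, 2662 and 3337 CPM in mKate2+ cells, and its part in the higher levels of the 6 genes was not tested. The cycling gene with the largest fold change was Mcm5, of the replicative helicase, at 2.17 in mKate2- cells. Mki67, the proliferation marker, was the gene not called against astrocytes, at 0.96 in mKate2- and 0.27 in mKate2+ cells. Without astrocyte replicate 3 it was at 1.52 in mKate2- cells (adjusted P = 9.23e-05 by edgeR) and called, so that 14 of 14 were, and at 0.82 in mKate2+ cells, not called. It was the only listed gene called in mKate2+ against mKate2- cells, at -0.70 (unadjusted P = 0.0332 and adjusted P = 0.923 by edgeR), with 46.0 CPM in mKate2+ replicate 2, 107 and 114 CPM in the other mKate2+ libraries and 134 to 161 CPM in mKate2- cells. Without mKate2+ replicate 2 it was at -0.41 and not called, and it was also not called without any 1 of the mKate2- replicates.

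Other oncofetal genes went both ways. Of 12 listed, 7 were tested in mKate2- cells against astrocytes, and 1 was called higher and 4 lower, with a median of -1.26. The transcription factor gene Plag1 was higher, at 1.23, 4.49 and 3.36 CPM in astrocytes and 14.01 to 14.9 CPM in mKate2- cells (log2 fold change 2.27, adjusted P = 0.00174 by edgeR). Plagl1 was called lower, with 86, 196 and 378 reads in astrocytes and 4, 0 and 0 in mKate2- cells, and with so few reads its fitted log2 fold change ran from -10.73 to -6.47 when single libraries were left out. Also lower were Dlk1, a Notch-like surface protein gene, at -4.71, H19 at -4.33 and Peg10 at -1.26, and Peg10 was not called without astrocyte replicate 3, at -0.97. In mKate2+ cells the surface glycoprotein gene Tpbg was called higher too, at 1.03 against 1.00 in mKate2- cells, where it was not called in the full fit but was in 3 of the 6 with 1 library left out. Without astrocyte replicate 3 the counts in mKate2- cells were 2 higher, Plag1 and Tpbg, and 3 lower. Tpbg was not called in mKate2+ cells without astrocyte replicate 1 or mKate2+ replicate 3 (lowest 0.90).

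**Figure D5:**
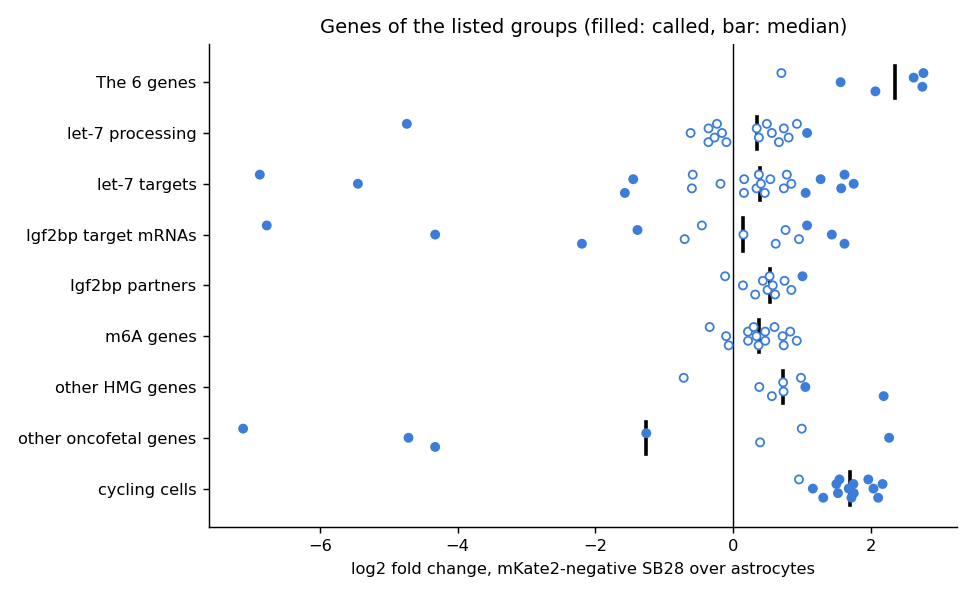
Log2 fold change in mKate2- cells against astrocytes (x axis) for the genes of each list, with filled points for calls and a black bar for the list's median. The 6 genes lie from 0.70 to 2.76, the let-7 and Igf2bp targets spread to both sides of 0 (medians 0.39 and 0.15), and the cycling genes lie on the higher side (median 1.70).

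A transcript that contains a let-7 gene went the other way. Mir99ahg (chr16:77236317-77773427, plus strand) is a noncoding RNA with the first let-7c locus inside it, at chr16:77599672-77599693 on the same strand. It was at 5.56, 5.35 and 6.603 CPM in astrocytes, 0.772, 0.474 and 0.335 CPM in mKate2- cells and 0.582, 0.509 and 0.497 CPM in mKate2+ cells. All SB28 libraries were below all astrocyte libraries, at -3.45 on the log2 scale in mKate2- cells (adjusted P = 0.000147 by edgeR) and -3.38 in mKate2+ cells (adjusted P = 7.22e-05). Of 5 tested genes that enclose a let-7 or miR-98 gene on its strand, Mir99ahg was the only one called in mKate2- cells. In mKate2+ cells 6720427I07Rik, around let-7a, let-7d and let-7f loci, was called lower as well, at -1.49 (adjusted P = 0.0127 by edgeR), and it was at -0.52 in mKate2- cells (adjusted P = 0.214). Host transcripts do not give the level of mature let-7.

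The genes most like each member over the 9 libraries were found by the root mean square difference in log2 CPM after each gene was centred on its own mean. For Igf2bp1 they were Kcnk5 (0.0917), Prkg2 (0.120) and Il18rap (0.130), and for Igf2bp3 Cdh26 (0.0898), Tfap2b (0.127) and Il18rap (0.135). For Igf2bp2 they were Tes (0.0706), Btbd11 (0.0823) and Bub1 (0.0894). For Lin28b they were Fancb (0.205), Pus7l (0.215) and Gm14139 (0.235), and for Hmga2 Rps6ka4 (0.169), Parvb (0.171) and Slc30a4 (0.177). Among the members themselves the closest pair was Igf2bp1 and Igf2bp3, at 0.175, and the farthest Lin28b and Hmga1, at 1.02. The distances describe 9 libraries in 3 groups, and any gene with a like step between astrocytes and SB28 cells comes close.

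The gene most like Hmga1 was its own copy, Hmga1b (0.121), followed by Akr1b8 (0.171) and Plaur (0.178). Hmga1b (ENSMUSG00000078249) is a gene of 1 exon at chr11:120762794-120764419 on the plus strand, and 1599 of 1602 aligned bases were identical between it and an Hmga1 transcript. Its counts were 0.506 to 0.681% of those of Hmga1 in every library. Reads that fit both places were not counted by the authors, so the level of Hmga1 is uncertain and may be too low. Whether such a loss was alike in all libraries was not tested, since that percentage covers only the reads that were counted.

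Some other counts touch the members. Malsu1, on the opposite strand, shares 1529 exonic bases with Igf2bp3, which is 18.7% of the exonic length of Igf2bp3, and the strand setting of the counting is not given in the sources used here. Malsu1 was at 13.2 to 20.98 CPM in astrocytes and 20.1 to 27.4 CPM in SB28 cells, and it differed by 0.31 on the log2 scale in mKate2- cells (adjusted P = 0.229 by edgeR), far from the 2.62 of Igf2bp3. Smaller overlaps on opposite strands were 102 bases between Hmga1 and AI413582, which was not called in any comparison, and 140 bases between Hmga2 and 1700006J14Rik.

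The promoters of the members, 250 bases before to 50 after the RefSeq start in GRCm38.p6, had no motif in common among those searched. Promoters were matched for 5 of the 6 genes, all but Igf2bp1. The letters CACGTG, the E-box bound by MYC among others and its own reverse complement, occurred in 7.2% of 32851 promoters. Igf2bp3 held 2 and Lin28b 1, and those of the other 3 genes held 0. The promoter of Igf2bp3, at chr6:49214905-49215204 on the minus strand, is shown because it held more E-boxes than the others, with these and the letters CCAAT (37.4% of promoters, both strands) in capitals.
Igf2bp3 promoter: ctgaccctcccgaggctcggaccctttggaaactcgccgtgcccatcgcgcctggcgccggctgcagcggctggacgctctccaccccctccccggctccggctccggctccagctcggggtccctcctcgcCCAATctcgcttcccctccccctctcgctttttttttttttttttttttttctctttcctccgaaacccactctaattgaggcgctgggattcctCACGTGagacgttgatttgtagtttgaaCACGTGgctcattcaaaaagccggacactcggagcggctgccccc

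The letters GGGCGG, searched on both strands, were the reverse case. They occurred in 35.7% of all promoters, 4 times in that of Hmga1, 2 times in that of Igf2bp2 and 1 time in that of Hmga2, and 0 times in those of Igf2bp3 and Lin28b. The letters TATAAA, also on both strands, occurred in 13.6% of promoters and in 0 of these 5. These are descriptions of letters, and no binding was measured.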

How the data were processed

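RNA-seq counts per gene came from 9 libraries of sorted cells. Per the labels and the study's methods, the authors trimmed reads with Trimmomatic 0.36, mapped them to GRCm38 with STAR 2.5.2b and deposited counts of uniquely assigned reads (featureCounts, Subread 1.5.2) without normalization. The annotation release and the strand setting are not given in the sources used here. The sort gates in the labels and in the methods place CellTrace Violet on different cells, so libraries were taken by name. Nothing in the labels ties libraries of the same number to 1 co-culture. The study's methods describe astrocytes and both kinds of SB28 cells as coming from 3 distinct co-cultures, of 1 tumor line. Libraries of different populations may thus share a co-culture, and the main fits did not pair them.

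Gene names, exons and 3′ UTRs came from GENCODE M21, which names 49056 of the 49315 identifiers, and microRNA and promoter sequences from RefSeq (GRCm38.p6). Each comparison was fitted to its own 6 libraries after TMM normalization, keeping genes that passed 1 CPM in 2 or more of them, in edgeR 4.0.16 (R 4.3.3, limma 3.58.1) with Benjamini-Hochberg adjustment over all genes tested. Calls used the study's thresholds, with the mean normalized count for the minimum of 50. Alternatives were DESeq2 1.42.0, RLE and upper-quartile normalization, 2 other filters (any count, or 10 counts throughout), 1 joint fit of the 9 libraries, a block for the replicate number and leaving out single libraries. Removal of a gene length trend (loess, span 0.3), the listed genes without single libraries and the limit on SB28 RNA were chosen after seeing the data. Likeness between genes used log2 CPM (prior count 2), and 3 genes per member are named. From each list the called genes with the largest change are named, up to 3 in each direction, with the rest of short lists, and 1 called let-7 target is counted but not reported here by name. Gpr149, Igf2, Mki67, Tgfbr1 and marker genes picked from their lists were named after their values were seen. The fits were tested on simulated data. Depth of 24454561 to 39287841 counts makes counting error small for all members but Lin28b, and the spread between 3 replicates limits precision. The 6 genes and the lists were chosen with earlier results of these data known.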

Additional observations from a re-analysis of the deposited data

How the results depend on the processing

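The counts were 5 genes called higher and 0 lower in each SB28 population, and 0 calls between mKate2+ and mKate2- cells. Over 14 alternative fits for each of the 3 comparisons, they were unchanged in all but 3 fits. Those 3 gave 6 genes called higher, with Hmga1 added, and were the fits of both populations without astrocyte replicate 1 and that of mKate2+ cells with the replicate block. Igf2bp1, Igf2bp2, Igf2bp3, Lin28b and Hmga2 kept direction and call against astrocytes in each of 14 alternatives per comparison. Hmga1 was the exception, with a log2 fold change of 0.36 to 1.01 in mKate2- and 0.52 to 1.18 in mKate2+ cells when single libraries were left out, and DESeq2 gave 0.70 (adjusted P = 0.0495) and 0.87 (adjusted P = 0.0256). With the replicate number as a block, Hmga1 was at 0.84 (adjusted P = 0.0430 by edgeR) in mKate2- cells and at 1.02 (adjusted P = 0.0241) in mKate2+ cells, the latter a call. Same-numbered libraries deviated from their group means with correlations from -0.147 to 0.251, so the numbers were not taken as pairs. The block moved the calls between mKate2+ and mKate2- cells over the whole table from 23 higher and 20 lower to 13 and 33, and DESeq2 gave 62 and 21.

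Between mKate2+ and mKate2- cells the signs of the small differences were not stable for Igf2bp1, Igf2bp3, Lin28b and Hmga2. In all 14 alternatives Igf2bp2 stayed negative and Hmga1 positive. With the gene length trend removed, Igf2bp1 was at 0.0622 and Hmga2 at 0.0297. With single libraries left out, Igf2bp1 ran from -0.0625 to 0.0223, Igf2bp3 from -0.0295 to 0.151, Lin28b from -0.439 to 0.0137 and Hmga2 from -0.0819 to 0.0391. For these the cause was not tested. With Pearson's correlation in place of the root mean square difference, the gene most like each member was another one. Lin28b, at 16 to 36 reads in astrocytes, is the member limited by depth.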
